A study of Homo sapiens with 17 samples.

Results

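Nuclear-encoded oxidative phosphorylation genes are the genes of the cell nucleus that code for the protein subunits of respiratory complexes I to V. They were chosen by symbol alone, as the protein-coding genes of the NDUFA, NDUFB, NDUFC, NDUFS and NDUFV series, SDHA to SDHD, the UQCR genes, the lettered COX5 to COX8 genes, and the ATP5F1, ATP5M and ATP5P genes. The table listed 84 such genes among 60664, and 77 of them reached 10 normalized counts on average over the 12 libraries and are the members described here, beside 15599 genes of all kinds that did so. There were 36 members of complex I, 4 of complex II, 9 of complex III, 11 of complex IV and 17 of complex V, with NDUFA4 placed in complex IV, where the protein is now known to reside.

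The libraries came from SF8628, a cell line of diffuse midline glioma that carries the K27M mutation of histone H3.3, grown as a monolayer. Cells received either the vehicle DMSO or 1 uM AZD5153, an inhibitor of the bromodomains of BET proteins, and total RNA was collected after 24 or 48 hours. The 4 groups were thus DMSO at 24 hours, AZD5153 at 24 hours, DMSO at 48 hours and AZD5153 at 48 hours, each with 3 libraries, and each AZD5153 group had DMSO cells of the same time as its control. All groups shared the same cell line and the same mutation, so every value describes 1 cell line in culture. The labels do not say whether replicates were separate cultures, and p-values therefore measure only the spread between these libraries.

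Oxidative phosphorylation is the process by which mitochondria turn the energy of food molecules into ATP. Complex I takes electrons from NADH and complex II takes them from succinate, both pass them to ubiquinone, complex III hands them on to cytochrome c, and complex IV gives them to oxygen. Complexes I, III and IV pump protons across the inner membrane on the way, and complex V, the ATP synthase, lets protons flow back through a rotating ring and makes ATP. Most subunits are made from nuclear genes and imported, while a few central ones are made inside the mitochondrion from its own DNA. Gliomas make ATP both by glycolysis and by respiration.

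The libraries held 15759148 to 27335220 reads on genes, with a median of 20737337. The members took 0.584% to 0.611% of the normalized counts in the DMSO libraries. Their share was 0.623% to 0.659% after 24 hours of AZD5153 and 0.700% to 0.709% after 48 hours. The 13 mRNAs made from mitochondrial DNA were listed at 0 in every library, so only the nuclear side of each complex was measured. DMSO replicate 1 at 24 hours stood apart, with 19 of 77 members more than 0.5 (log2) from the mean of the other libraries of its group, against 2 to 8 in the other libraries. Of all genes 20.8% lay that far off in this library, against 8.28% to 14.7% in the others, so the deviation was not particular to the members. Of the 6 midline glioma and glial markers, OLIG2 was listed at 0 and PDGFRA had a mean of 2.66, while VIM, CD44, NES and SOX2 had means of 18049, 6404, 1336 and 191. Their sum was 28260 to 37518 in DMSO and 26230 to 28211 in AZD5153 at 24 hours and overlapped between treatments at 48 hours. Of the 4 tested singly, 1 was called higher and 3 lower at 24 hours, and 1 higher and 2 lower at 48 hours. The summed markers of endothelial cells (324 to 636 normalized counts in DMSO and 50.0 to 67.0 in AZD5153, with CDH5 at 0), of myeloid cells (177 to 213 and 25.6 to 48.9, with AIF1 at 0) and of oligodendrocytes (198 to 344 and 37.6 to 46.9, with MOG at 0) were lower in AZD5153 in a culture of 1 cell line. Those of neurons (701 to 884 and 745 to 922) and astrocytes (22.8 to 58.6 and 25.5 to 39.2) overlapped between treatments. Of the 2 neuron markers tested singly, 1 was called lower and 1 was not called at 24 hours, at 48 hours and over both times. The part of these markers in the results below was not tested. In bulk RNA of 1 cell line, fewer cells that express a marker and less of its RNA per cell cannot be told apart.

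Over both times, more oxidative phosphorylation members rose than fell in AZD5153. Of the 77 members, 49 were higher (63.6%) and 9 lower (11.7%) at an adjusted p under 0.05 in limma, against 37.7% higher and 38% lower among all 15599 genes, and 75.8% of all genes called in either direction. The members' median log2 fold change was 0.24, and that of all genes was 0.00253. The changes were small, and with a minimum size of 0.5 (log2) 23.4% of members were higher and 2.6% lower over both times, against 22.7% and 27% of all genes. Among the 49, NDUFA7 reached the minimum of 10 only through its AZD5153 libraries. The other 48 rose by a median of 1.32-fold (range 1.09 to 1.91), and those called lower had a median of 0.775 of their DMSO level (range 0.503 to 0.889). All fold changes are on the scale of log2(normalized count + 1).

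At 24 hours 41 members were higher and 13 lower, where 68.5% of all genes were called (33.9% higher, 34.6% lower). At 48 hours 41 were higher and 10 lower, where 67% of all genes were called (33.1% higher, 33.9% lower). A set of 31 members was called higher at both times, against 26% of all genes, and 8 were called lower at both, against 27.1%. Only ATP5PB was called in opposite directions, and 12 members were called at neither time. In 30 members every AZD5153 library lay above every DMSO library of its time at both times, against 27.2% of all genes, and in 8 every one lay below, against 28.1%. Without DMSO replicate 1 at 24 hours the counts were 43 higher and 13 lower at 24 hours, 44 and 11 at 48 hours, and 51 and 11 over both times.

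How many members passed depended on the scaling between libraries. AZD5153 libraries held 20957623 to 21162897 normalized counts in total, against 19278576 to 19456773 in DMSO at 24 hours and 18603746 to 18744875 at 48 hours. When every library was scaled to the same total, the median of all genes was -0.143 (log2) over both times, in place of 0.00253. Then 35 members were higher and 18 lower (45.5% and 23.4%, against 29.8% and 45.4% of all genes), so that the share of higher among called members was 66% in place of 84.5%. Relative to the median of all genes the members' median was 0.237 under equal totals and 0.239 with the deposited scaling. The members have short transcripts, with a median of 758 bases against 2992 for all genes. After a smooth trend on transcript length and GC content was removed from each library, the members' median relative to all genes was 0.053 at 24 hours and 0.194 at 48 hours, in place of 0.249 and 0.241, with 34 higher and 14 lower at 24 hours (44.2% and 18.2%, against 40.2% and 31.3% of all genes) and 47 higher and 7 lower at 48 hours (61% and 9.09%, against 43.2% and 28.3%).

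**Figure D1:**
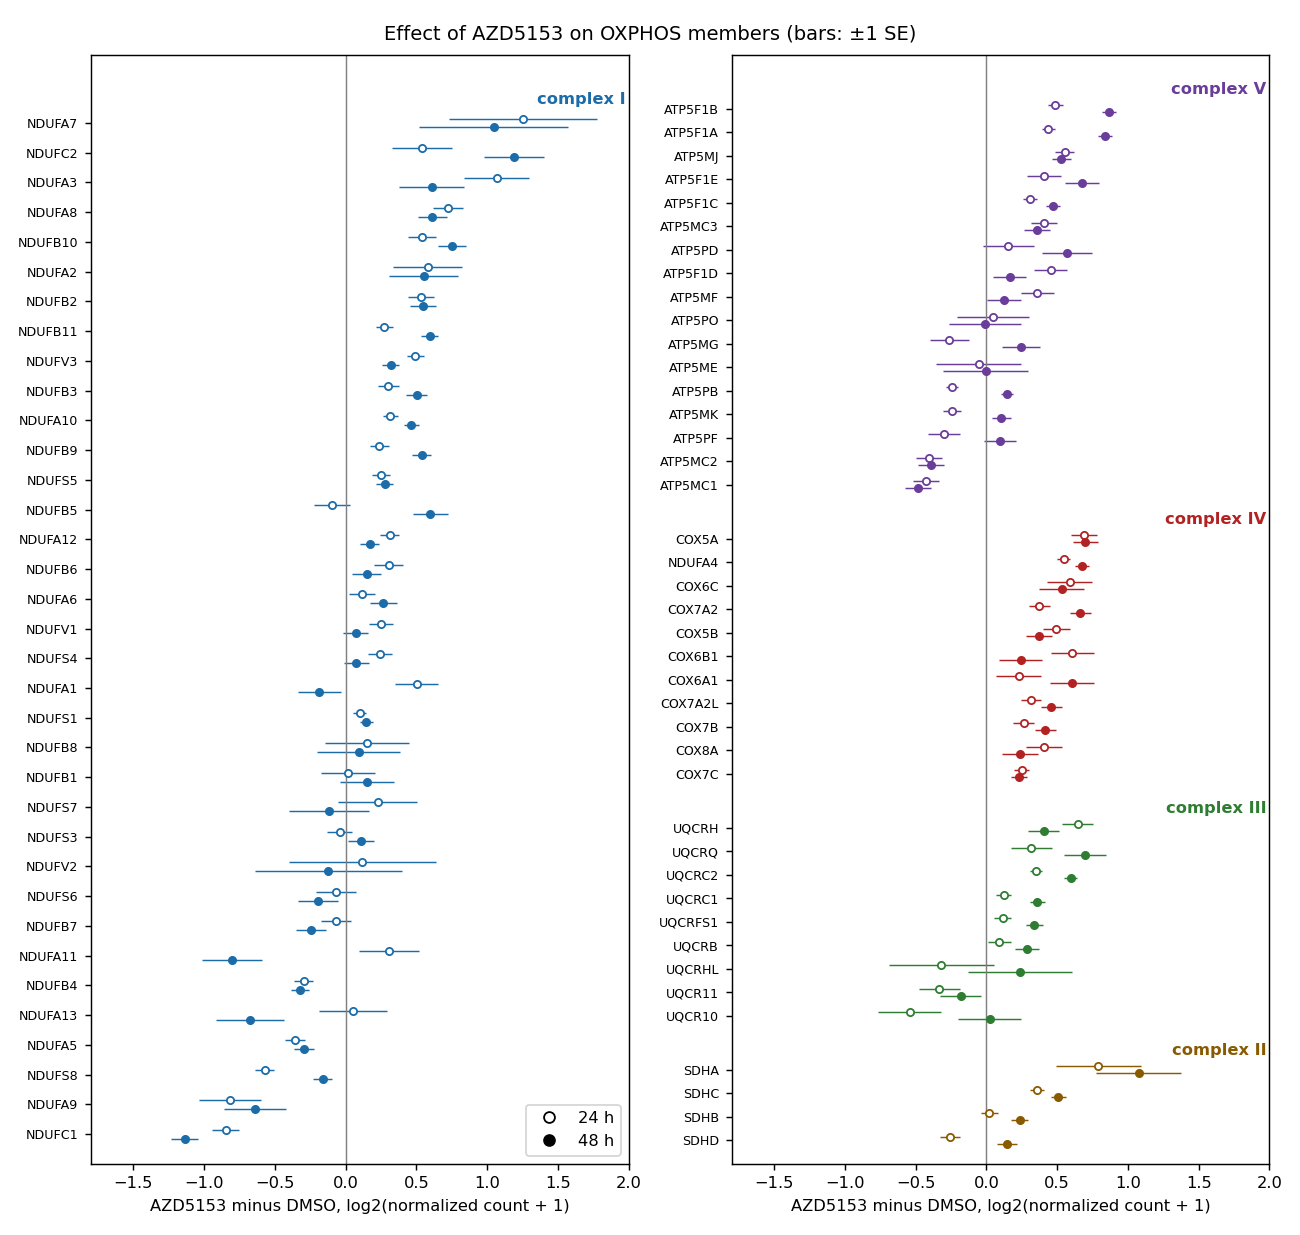
Log2 fold change of AZD5153 over DMSO for members at 24 hours (open points) and 48 hours (filled points), grouped by complex, with bars of 1 standard error. All 11 points of complex IV lie to the right of 0 at both times, complexes I and V hold members on both sides, and the bars are widest for low members such as NDUFA7 and NDUFV2.

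The counts of called members differed between complexes, and this difference was not tested. Complex IV had 11 higher and 0 lower over both times (median log2 fold change 0.42), complex III 6 and 1 (0.23), complex II 3 and 0 (0.28), complex V 9 and 2 (0.24) and complex I 20 and 6 (0.16). Of all genes 37.7% were higher and 38% lower. The 20 of complex I include NDUFA7, which reached the minimum of 10 only through its AZD5153 libraries. Without DMSO replicate 1 at 24 hours complex V had 10 and 2 and complex I 21 and 8, and the counts of the others did not move. The 6 lower members of complex I and the 2 of complex V were below DMSO in every library at both times, so these complexes held members moving in both directions.

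Levels per length were summed over the members of each complex. These sums are partial, since the symbol rule left out some measured nuclear subunits. Examples are COX4I1 of complex IV and CYC1 of complex III, with means of 2895 and 2434 normalized counts. The normalized counts per kilobase of transcript, summed over the members of complex I, were 41983 ± 2619 (SD, n = 3) with AZD5153 against 38444 ± 1266 with DMSO at 24 hours, then 42284 ± 247 against 37544 ± 545 at 48 hours, which is 1.09 and 1.13 times DMSO. Complex IV had 27457 ± 2105 against 20549.8 ± 982 at 24 hours, then 29407 ± 400.1 against 21834 ± 753 at 48 hours, or 1.34 and 1.35 times DMSO. Complex III was at 1.33 and 1.34 times DMSO and complex II at 1.07 and 1.26 times. Complex V was at 1.09 times DMSO at 24 hours (38085 ± 923 with AZD5153 against 34878 ± 934) and at 1.28 times at 48 hours (42068 ± 596 against 32936 ± 527). For complex I the groups overlapped at 24 hours, with AZD5153 replicate 3 at 38981 and DMSO replicate 3 at 39811.5. All these sums are led by the few most abundant members of each complex and were not tested.

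**Figure D2:**
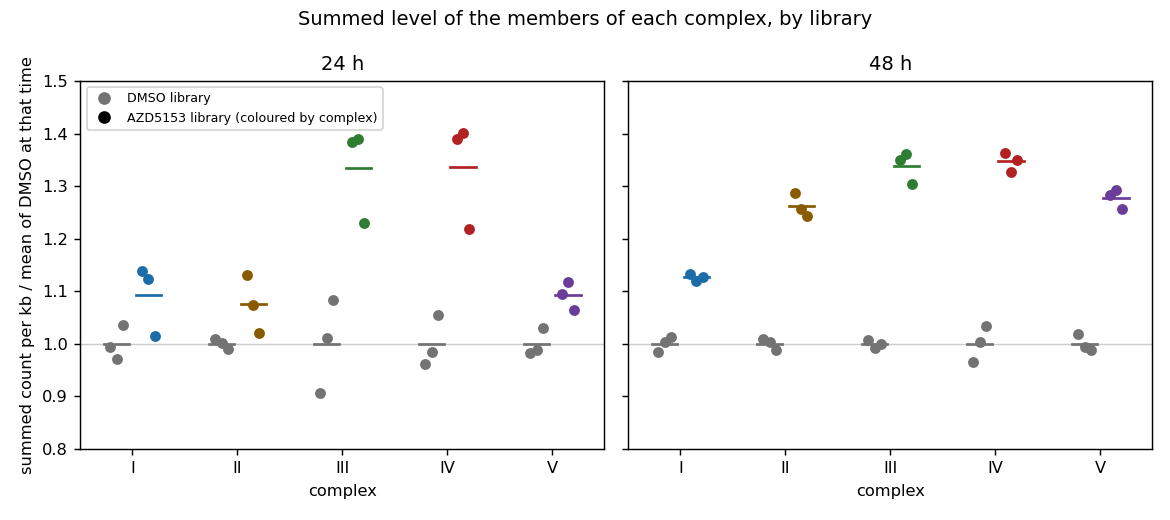
Summed normalized counts per kilobase of the members of each complex, divided by the mean of the DMSO libraries of the same time, for each library at 24 and 48 hours (points) with group means (lines). Complexes III and IV have the largest ratios at both times (1.33 to 1.35) and complex V moves from 1.09 to 1.28. AZD5153 replicate 3 at 24 hours lies below the other AZD5153 libraries of its time in every complex, and below DMSO replicate 3 in complex I.

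Complex IV, cytochrome c oxidase, is the enzyme that reduces oxygen to water. Its catalytic subunits come from mitochondrial DNA, and the nuclear subunits surround and regulate them. All 11 members were called higher over both times, 10 at 24 hours and 9 at 48 hours, where 37.7%, 33.9% and 33.1% of all genes were. Under equal totals and after the length and GC correction 10 of the 11 were higher over both times, and all 11 were higher in each of the fits that left out 1 library. COX4I1, a nuclear subunit of complex IV outside the symbol rule, rose less than all 11. Its log2 value over both times was 0.14 (limma adjusted p = 0.017), where the lowest of the 11 was 0.24. It was not called at 24 hours (0.11, adjusted p = 0.15) and was called higher at 48 hours (0.16, adjusted p = 0.046).

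COX5A (ENSG00000178741), which lies on the matrix side of the enzyme, had the largest value over both times (log2 0.69), but without DMSO replicate 1 at 24 hours COX6C, a small membrane subunit, was higher than COX5A (0.65 against 0.63). The level of COX5A was 1046, 1266 and 1455 normalized counts with DMSO against 2023, 2077 and 1919 with AZD5153 at 24 hours, then 1260.1, 1155 and 1300.0 against 1970.5, 1999 and 2059 at 48 hours. Every AZD5153 library lay above every DMSO library, and the level was 1.61 times that of DMSO at 24 hours and 1.62 times at 48 hours (log2 0.69 ± 0.091 SE, limma adjusted p = 5.6e-06, and 0.70 ± 0.091, adjusted p = 4.6e-06). COX5B, the zinc-binding subunit of the matrix side, had 1686, 1914 and 2285 normalized counts with DMSO against 2689.6, 3087 and 2487 with AZD5153 at 24 hours, then 2137, 2338 and 2402 against 2983, 2919 and 2989 at 48 hours. It too was above DMSO in every library, with folds of 1.41 (limma adjusted p = 0.00023) at 24 hours and 1.29 (adjusted p = 0.0025) at 48 hours, the second of which was not called under equal totals (log2 0.20, adjusted p = 0.068).

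NDUFA4, first named as a part of complex I, had the narrowest spread in the complex. Its level was 3167, 3128 and 3226 normalized counts with DMSO against 4758, 4573 and 4570.3 with AZD5153 at 24 hours, then 3088, 2975 and 3326 against 5109, 4929.5 and 4934 at 48 hours. The fold changes were 1.46 (limma adjusted p = 6e-08) at 24 hours and 1.60 (adjusted p = 4.7e-09) at 48 hours. COX7C, a small membrane subunit that was the third most abundant member per length, rose by 1.19 (limma adjusted p = 0.00082) at 24 hours and 1.17 (adjusted p = 0.0016) at 48 hours, from 3384, 3421 and 3390.5 to 4262, 4145 and 3732 normalized counts at 24 hours. Its 48-hour call was lost under equal totals (log2 0.058, adjusted p = 0.36) and quantile normalization (0.077, adjusted p = 0.23).

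For several subunits of complex IV the genome holds a widely used copy and a copy for heart, muscle or testis. Among these pairs only the widely used copies reached a mean of 10 normalized counts. COX6A1 and COX6B1 were members with means of 172 and 1697, while COX6A2 was listed at 0 and COX6B2 had a mean of 2.59. COX7A2 and COX7B had means of 2506 and 1702, while COX7A1 had 1.40 and COX7B2 and COX8C were listed at 0. A listed 0 need not mean that a gene is silent, since the mitochondrial mRNAs are listed at 0 too.

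COX7A2 had 2323, 1987 and 1927 normalized counts with DMSO against 2841, 2836 and 2408 with AZD5153 at 24 hours, then 1971, 2077 and 2044 against 3315, 3080.3 and 3261 at 48 hours, with folds of 1.30 (limma adjusted p = 0.00038) at 24 hours and 1.58 (adjusted p = 1e-06) at 48 hours. COX7A2L, a relative of COX7A2 that helps to join complexes III and IV into supercomplexes, rose by 1.24 (limma adjusted p = 0.0011) at 24 hours and 1.37 (adjusted p = 3.5e-05) at 48 hours. COX7B rose by 1.20 (limma adjusted p = 0.0063) at 24 hours and 1.33 (adjusted p = 0.00016) at 48 hours, and its 24-hour call was lost under equal totals (log2 0.14, adjusted p = 0.12). COX6A1 was called at 48 hours but not at 24 hours, with 144, 130.3 and 177 normalized counts with DMSO against 186, 189 and 152 with AZD5153 at 24 hours, then 123, 164 and 141 against 212, 251 and 191 at 48 hours. Its libraries overlapped at 24 hours, and its fold changes were 1.17 (limma adjusted p = 0.21) at 24 hours and 1.52 (adjusted p = 0.003) at 48 hours. COX6B1 showed the reverse order, with folds of 1.52 (limma adjusted p = 0.0021) at 24 hours and 1.18 (adjusted p = 0.17) at 48 hours, and at 24 hours its DMSO libraries ranged from 942 to 1708. Without DMSO replicate 1 at 24 hours, the library at 942, the 24-hour value of COX6B1 went from 0.61 to 0.37 (log2, limma adjusted p = 0.00032). In that fit COX6B1 also passed at 48 hours (adjusted p = 0.0051). The treatment by time interaction, which tests whether the effect differed between 24 and 48 hours, called 0 of the 11 members in limma, with 1 at an unadjusted p under 0.05, and 0 in edgeR and DESeq2.

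Complex V, the ATP synthase, consists of a soluble F1 head that makes ATP, a ring of c subunits that turns in the membrane, and a peripheral stalk that holds the head still. The members were sorted into these groups by the known place of each protein after their values had been seen, members beyond the rule for named genes were chosen for their role in the same way, and the groups are described with no test. All 5 members of the F1 head and its central stalk were higher over both times (median log2 0.54), 5 at 24 hours and 4 at 48 hours. The shares of all genes higher were 37.7%, 33.9% and 33.1%. Under equal totals 4 of the 5 were higher over both times.

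ATP5F1B (ENSG00000110955), the catalytic beta subunit and the most abundant of all 77 members in counts and per length, had 15696, 17921 and 18243 normalized counts with DMSO against 23718, 24753 and 24118 with AZD5153 at 24 hours, then 16440.3, 16159.6 and 15817 against 29675, 29339 and 29234 at 48 hours. The AZD5153 libraries at 48 hours lay above those at 24 hours, and both lay above all DMSO libraries. The fold changes were 1.40 (limma adjusted p = 3.3e-07) at 24 hours and 1.82 (adjusted p = 3.5e-10) at 48 hours. ATP5F1A, the alpha subunit that alternates with beta in the head, had 5168, 4990.3 and 5075 normalized counts with DMSO against 6649, 6707 and 7306 with AZD5153 at 24 hours, then 4605, 4713 and 5028 against 8572, 8597 and 8487 at 48 hours, with folds of 1.36 (limma adjusted p = 6.8e-07) at 24 hours and 1.79 (adjusted p = 3e-10) at 48 hours. ATP5F1C, the gamma subunit that turns inside the head, rose by 1.24 (limma adjusted p = 5.7e-05) at 24 hours and 1.39 (adjusted p = 4.9e-07) at 48 hours. ATP5F1D and ATP5F1E, the delta and epsilon subunits of the central stalk, rose by 1.37 (adjusted p = 0.0029) and 1.32 (adjusted p = 0.0067) at 24 hours, and at 48 hours only ATP5F1E passed in limma (1.60-fold, adjusted p = 0.00011, against 1.12-fold, adjusted p = 0.23). Without DMSO replicate 1 at 24 hours the 24-hour value of ATP5F1D went from 0.45 to 0.30 (log2, limma adjusted p = 0.0025).

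The c ring held the 2 members of complex V that were lower over both times. The c subunit is made from ATP5MC1 (ENSG00000159199), ATP5MC2 (ENSG00000135390) and ATP5MC3 (ENSG00000154518), whose proteins have different import signals that are cut off, leaving the same mature protein. The ends of the coding sequences are shown because they carry the part that is the same in protein but not in RNA, which is what lets reads tell the genes apart. Each is the last 234 bases of the coding sequence, stop codon included, and the 77 amino acids are identical in all 3 genes. Capitals mark bases that differ from ATP5MC3, of which there were 47 in ATP5MC1 and 47 in ATP5MC2 (79.9% identity for each). These stretches span, introns included, chr17:48895216-48895769 on the plus strand for ATP5MC1, chr12:53665314-53669266 on the minus strand for ATP5MC2 and chr2:175178288-175179175 on the minus strand for ATP5MC3, in hg38 with the GENCODE 44 annotation.
ATP5MC1: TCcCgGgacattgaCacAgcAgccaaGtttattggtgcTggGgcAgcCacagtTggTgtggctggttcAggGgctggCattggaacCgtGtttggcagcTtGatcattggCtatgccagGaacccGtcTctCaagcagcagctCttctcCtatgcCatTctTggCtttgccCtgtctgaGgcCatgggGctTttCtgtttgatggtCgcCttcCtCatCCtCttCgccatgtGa
ATP5MC2: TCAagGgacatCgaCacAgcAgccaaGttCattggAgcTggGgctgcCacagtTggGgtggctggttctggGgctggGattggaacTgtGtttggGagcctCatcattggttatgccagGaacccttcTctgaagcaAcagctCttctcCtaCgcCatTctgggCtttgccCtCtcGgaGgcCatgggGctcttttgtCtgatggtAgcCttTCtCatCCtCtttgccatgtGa
ATP5MC3: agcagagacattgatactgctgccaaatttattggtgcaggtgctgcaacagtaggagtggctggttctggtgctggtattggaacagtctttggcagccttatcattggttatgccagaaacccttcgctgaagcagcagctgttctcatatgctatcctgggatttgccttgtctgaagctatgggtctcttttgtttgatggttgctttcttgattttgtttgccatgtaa

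ATP5MC1 fell in AZD5153. Its level was 1658, 1958 and 2241 normalized counts with DMSO against 1538, 1463 and 1329 with AZD5153 at 24 hours, then 2036, 1883 and 1831 against 1444, 1410.3 and 1263 at 48 hours. ATP5MC2 fell as well, with 3119.9, 3775 and 4054 normalized counts with DMSO against 2983, 2896 and 2379 with AZD5153 at 24 hours, then 4073, 3718 and 3745 against 2933, 2972 and 2878 at 48 hours. ATP5MC3 rose, with 2395, 2867 and 3214 normalized counts with DMSO against 3888, 4072 and 3253 with AZD5153 at 24 hours, then 2682, 2809 and 2632 against 3532, 3561 and 3319.8 at 48 hours. In each of the 3 genes the AZD5153 libraries did not overlap the DMSO libraries of their time. Over both times the log2 fold changes were -0.45 ± 0.066 SE (adjusted p = 1.1e-05 in limma) for ATP5MC1, -0.40 ± 0.064 (adjusted p = 3.3e-05) for ATP5MC2 and 0.38 ± 0.066 (adjusted p = 6.6e-05) for ATP5MC3. These 3 calls held over both times under every alternative except a minimum size of change and in every fit without 1 library, and ATP5MC3 at 48 hours missed the threshold under equal totals (adjusted p = 0.084).

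**Figure D3:**
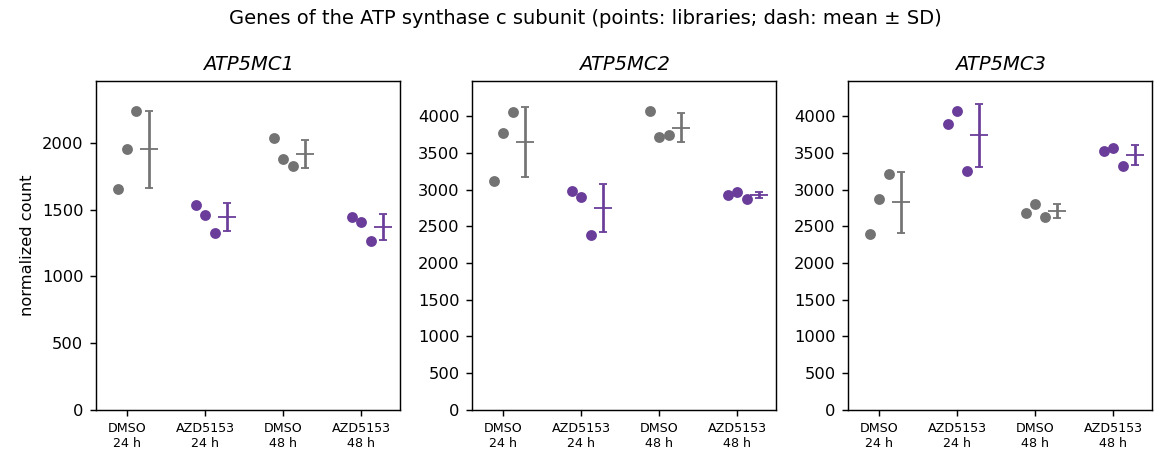
Normalized counts of the 3 genes of the ATP synthase c subunit in each library (points) with mean and SD (dash and bar), in DMSO (grey) and AZD5153 (purple) at 24 and 48 hours. ATP5MC1 and ATP5MC2 are lower and ATP5MC3 is higher in all AZD5153 libraries than in the DMSO libraries of the same time.

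In the peripheral stalk and the remaining membrane subunits the calls differed between times. Of all genes 33.9% were higher and 34.6% lower at 24 hours, 33.1% and 33.9% at 48 hours, and 37.7% and 38% over both times. Groups of 4 and 5 members are too small to be told apart from these shares. Of the 4 stalk members 2 were lower at 24 hours, 2 were higher at 48 hours, and over both times 1 was higher and 3 were not called. Without DMSO replicate 1 at 24 hours the stalk had 2 higher and 1 lower at 24 hours, and 2 higher and 0 lower over both times. Of the 5 other membrane members 2 were higher and 1 lower at 24 hours, 1 was higher at 48 hours, and over both times 2 were higher and 3 not called. ATP5PB, the long b subunit of the stalk, had 3153, 3232 and 3267 normalized counts with DMSO against 2735, 2739.9 and 2682 with AZD5153 at 24 hours, then 2759.9, 2774 and 2706 against 3115, 3009 and 2996 at 48 hours. Its AZD5153 libraries lay below DMSO at 24 hours and above DMSO at 48 hours, where the DMSO level itself was lower than at 24 hours (0.854 times, adjusted p = 8e-04). The folds were 0.845 (limma adjusted p = 0.00014) at 24 hours and 1.11 (adjusted p = 0.0078) at 48 hours. ATP5PD, the d subunit of the stalk, had a DMSO library at 24 hours far above the others (1360.5, 664 and 744 normalized counts) and folds of 1.11 (limma adjusted p = 0.45) at 24 hours and 1.48 (adjusted p = 0.01) at 48 hours. Without that library, DMSO replicate 1, the 24-hour value of ATP5PD went from 0.16 to 0.47 (log2) and passed (adjusted p = 6.4e-06). ATP5PF, the F6 subunit of the stalk, was lower at 24 hours (-0.30 on the log2 scale, adjusted p = 0.028), but not without DMSO replicate 1 (-0.11, adjusted p = 0.12). ATP5MJ, a small subunit of the membrane part, rose by 1.47 (limma adjusted p = 1.9e-06) at 24 hours and 1.44 (adjusted p = 3.2e-06) at 48 hours, which was more than any c subunit gene. ATP5MF, the f subunit, rose at 24 hours with folds of 1.28 (limma adjusted p = 0.013) at 24 hours and 1.09 (adjusted p = 0.37) at 48 hours. ATP5MG, the g subunit, was not called, with folds of 0.834 (limma adjusted p = 0.098) at 24 hours and 1.18 (adjusted p = 0.13) at 48 hours, but its call depended on the setting. It was lower at 24 hours without DMSO replicate 3 (adjusted p = 0.016) and under equal totals (adjusted p = 0.02), and higher at 48 hours (adjusted p = 0.0022 and 0.001) and over both times (adjusted p = 0.028 for each) under quantile normalization and after the length and GC correction. Its near-copy ATP5MGL had a mean of 0.776.

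Complex III, the cytochrome bc1 complex, passes electrons from ubiquinol to cytochrome c. Its core proteins UQCRC1 and UQCRC2 and the Rieske iron-sulfur protein UQCRFS1 were all higher over both times. UQCRC2 had 2855, 2834 and 2701 normalized counts with DMSO against 3455, 3570.3 and 3671 with AZD5153 at 24 hours, then 2793, 2838 and 2819 against 4340.3, 4214 and 4215 at 48 hours, and its folds were 1.27 (limma adjusted p = 4.2e-06) at 24 hours and 1.51 (adjusted p = 8.7e-09) at 48 hours. UQCRC1 rose by 1.09 (limma adjusted p = 0.049) at 24 hours and 1.28 (adjusted p = 1.9e-05) at 48 hours, and its 24-hour call was lost in 9 of the 12 fits without 1 library (adjusted p from 0.057 to 0.2), the exceptions being the fits without DMSO replicate 3 at either time or AZD5153 replicate 3 at 24 hours. UQCRFS1 missed the threshold at 24 hours and passed at 48 hours, with folds of 1.08 (limma adjusted p = 0.091) at 24 hours and 1.26 (adjusted p = 8.1e-05) at 48 hours, while every AZD5153 library lay above DMSO at both times. Under equal totals the value of UQCRFS1 was -0.00840 on the log2 scale at 24 hours and its call over both times was lost (0.079, adjusted p = 0.087).

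Among the small subunits of complex III, UQCRH, the acidic hinge protein that binds cytochrome c1, and UQCRQ, which lies next to cytochrome b, rose by 0.52 and 0.51 (log2) over both times, and by 0.44 and 0.64 without DMSO replicate 1 at 24 hours. UQCRH had 2314, 3066 and 3419.9 normalized counts with DMSO against 4933, 4783 and 3945 with AZD5153 at 24 hours, then 3342, 3234 and 3389 against 4443, 4579.7 and 4166 at 48 hours, with folds of 1.57 (limma adjusted p = 8e-05) at 24 hours and 1.32 (adjusted p = 0.0042) at 48 hours. At 48 hours its call was lost under equal totals (log2 0.23, adjusted p = 0.069) and quantile normalization (0.25, adjusted p = 0.053). UQCRH was second of the members in level per length. UQCRHL, a near-copy without introns, had a mean of 26.9, ranged from 13.4 to 39.4 over the libraries and was not called (adjusted p = 0.89 over both times). How the counting split reads between UQCRH and UQCRHL is not given in the sources used here. UQCRQ rose at 48 hours (folds of 1.25 (limma adjusted p = 0.067) at 24 hours and 1.62 (adjusted p = 0.00059) at 48 hours), and without DMSO replicate 1 it was also called at 24 hours (log2 0.58 in place of 0.32, adjusted p = 7.7e-08). UQCR11 was the 1 member of the complex called lower over both times (log2 -0.26 ± 0.10 SE, adjusted p = 0.031). At 24 hours alone it missed the threshold (log2 -0.33, adjusted p = 0.051) but passed as lower without DMSO replicate 1 (adjusted p = 0.0046) or AZD5153 replicate 1 (adjusted p = 0.025), and with adjusted p from 0.01 to 0.049 under equal totals, 7 stable genes, the minimum mean of 100, no trend, edgeR, DESeq2 and the length and GC correction. At 48 hours it passed as lower under equal totals (adjusted p = 0.039). It was no longer called over both times in 7 of the 12 fits that left out 1 library (adjusted p from 0.062 to 0.085), namely those without replicates 2 or 3 of DMSO at either time, replicates 2 or 3 of AZD5153 at 24 hours, or replicate 3 of AZD5153 at 48 hours, and under quantile normalization (adjusted p = 1).

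Complex II, succinate dehydrogenase, is also an enzyme of the tricarboxylic acid cycle and has only nuclear subunits. SDHC, a membrane anchor, had 1888, 1977 and 1941 normalized counts with DMSO against 2602, 2498 and 2350.0 with AZD5153 at 24 hours, then 2121, 2146 and 2127 against 3145, 2951 and 3002 at 48 hours. The AZD5153 libraries were above DMSO at both times, by 1.28 (limma adjusted p = 1.4e-05) at 24 hours and 1.42 (adjusted p = 2.7e-07) at 48 hours. SDHD, the other anchor, went in the other direction at 24 hours, where it had 1337, 1268 and 1245 normalized counts with DMSO against 1175, 957 and 1102 with AZD5153, and its folds were 0.837 (limma adjusted p = 0.0047) at 24 hours and 1.11 (adjusted p = 0.077) at 48 hours. SDHB, the iron-sulfur subunit, had folds of 1.01 (limma adjusted p = 0.78) at 24 hours and 1.18 (adjusted p = 0.0035) at 48 hours, and its value over both times turned to -0.019 on the log2 scale under equal totals. Its 48-hour call was lost under equal totals (0.063, adjusted p = 0.39) and quantile normalization (0.14, adjusted p = 0.059).

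SDHA, the flavin-bearing catalytic subunit, averaged only 53.9 normalized counts. Of its transcript, 69.4% is shared with another annotated gene on the same strand, and its pseudogenes had a summed mean of 1471. SDHA had 56.4, 24.9 and 31.2 normalized counts with DMSO against 40.2, 80.9 and 72.2 with AZD5153 at 24 hours, then 37.8, 38.1 and 32.4 against 73.9, 89.1 and 69.3 at 48 hours, with folds of 1.73 (limma adjusted p = 0.029) at 24 hours and 2.11 (adjusted p = 0.005) at 48 hours. The groups overlapped at 24 hours, and the 24-hour call was lost without DMSO replicate 2 (adjusted p = 0.14), DMSO replicate 3 (adjusted p = 0.076), AZD5153 replicate 2 (adjusted p = 0.13) or AZD5153 replicate 3 (adjusted p = 0.098).

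Complex I, NADH dehydrogenase, is the largest complex, with a matrix arm that takes up electrons and a membrane arm that pumps protons. As for complex V, members were sorted by the known place of their proteins after their values had been seen. In the N module, where NADH is oxidised, NDUFV1 and NDUFS1 were higher over both times by small amounts and NDUFV2 was not called. NDUFS1, which carries iron-sulfur clusters, had 3244, 3240.0 and 3119 normalized counts with DMSO against 3458, 3390.1 and 3441 with AZD5153 at 24 hours, then 2722, 2778 and 2939 against 3058, 3192 and 3091 at 48 hours. Its AZD5153 libraries lay above DMSO at both times with folds of 1.07 (limma adjusted p = 0.068) at 24 hours and 1.11 (adjusted p = 0.011) at 48 hours, and under equal totals the value over both times was -0.024 on the log2 scale. NDUFS1 passed at 24 hours without DMSO replicate 1 (adjusted p = 0.045) and missed at 48 hours without DMSO replicate 1 (adjusted p = 0.055). NDUFV1, which binds NADH, had DMSO levels of 2259.9, 2671 and 3153 at 24 hours that overlapped the AZD5153 levels of 3278, 3186 and 3064. Its call over both times (1.12-fold, adjusted p = 0.029) was lost without DMSO replicate 1 at 48 hours (adjusted p = 0.076), AZD5153 replicate 1 (adjusted p = 0.065) or 2 (adjusted p = 0.051) at 24 hours, or AZD5153 replicate 1 at 48 hours (adjusted p = 0.065). It was also lost under equal totals (log2 0.0122, adjusted p = 0.86), 7 stable genes (adjusted p = 0.055), quantile normalization (adjusted p = 0.26) and without the intensity trend (adjusted p = 0.077).

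The Q module, where ubiquinone is reduced, held NDUFS8, NDUFS3 and NDUFS7 among its core subunits. NDUFS8, an iron-sulfur subunit, had 2210.3, 2109 and 2079 normalized counts with DMSO against 1476, 1532 and 1304 with AZD5153 at 24 hours, then 1898, 1756 and 1673 against 1580.2, 1594 and 1578 at 48 hours. It was below DMSO in every library, with folds of 0.673 (limma adjusted p = 1.2e-06) at 24 hours and 0.893 (adjusted p = 0.04) at 48 hours. NDUFS3 and NDUFS7 were not called (adjusted p = 0.66 and 0.81 over both times).

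Of the 9 accessory members of the matrix arm, 6 were higher and 2 lower over both times, the 6 including NDUFA7, which reached the minimum of 10 only through its AZD5153 libraries. Among all genes 37.7% were higher and 38% lower. NDUFA5 and NDUFA9 fell, with log2 values of -0.33 ± 0.050 SE (adjusted p = 2.1e-05) and -0.73 ± 0.16 (adjusted p = 0.00049) in limma. NDUFA9, which sits at the joint of the arms, had 202, 135 and 129 normalized counts with DMSO against 84.5, 87.0 and 86.9 with AZD5153 at 24 hours, then 115, 119.7 and 133 against 87.5, 102 and 53.0 at 48 hours, all AZD5153 libraries being below those of DMSO. NDUFV3 rose most steadily in this group, with 1059.5, 1078 and 1086 normalized counts with DMSO against 1498, 1593 and 1447 with AZD5153 at 24 hours, then 1086, 1051 and 1086 against 1258, 1378 and 1389.5 at 48 hours.

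The membrane arm held 20 members, of which 12 were higher and 2 lower over both times, 13 and 4 without DMSO replicate 1 at 24 hours. These counts stand against 37.7% higher and 38% lower among all genes. NDUFC1 (ENSG00000109390), a small subunit that crosses the membrane once, fell most of all members. It had 766, 769 and 946 normalized counts with DMSO against 471, 456 and 446 with AZD5153 at 24 hours, then 741, 852 and 712 against 350.1, 369 and 325 at 48 hours. The AZD5153 libraries did not reach the DMSO range at either time, and the folds were 0.556 (limma adjusted p = 1e-06) at 24 hours and 0.455 (adjusted p = 3.1e-08) at 48 hours. NDUFB4, the other lower member, had 2284, 2447 and 2151 normalized counts with DMSO against 1829, 1995 and 1776 with AZD5153 at 24 hours, then 2076, 2065 and 2291 against 1724, 1653 and 1767 at 48 hours, with folds of 0.814 (limma adjusted p = 0.00078) at 24 hours and 0.800 (adjusted p = 4e-04) at 48 hours.

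NDUFC2, the partner of NDUFC1 in the membrane arm, rose most over both times among members of complex I that averaged 100 or more. Its value was 0.86 ± 0.15 SE on the log2 scale, close to the 0.84 ± 0.16 of NDUFA3, and at 24 hours NDUFA3 and NDUFA8 rose more. NDUFC2 had 167, 85.4 and 92.7 normalized counts with DMSO against 141, 159.7 and 181 with AZD5153 at 24 hours, then 95.5, 78.0 and 93.9 against 177, 228 and 209 at 48 hours. The libraries overlapped at 24 hours, where DMSO replicate 1 lay inside the AZD5153 range, and were apart at 48 hours. Without that library the 24-hour value of NDUFC2 went from 0.54 to 0.84 (log2). The folds were 1.45 (limma adjusted p = 0.034) at 24 hours and 2.28 (adjusted p = 0.00012) at 48 hours, and the 24-hour call was lost without DMSO replicate 2 (adjusted p = 0.17), DMSO replicate 3 (adjusted p = 0.12), AZD5153 replicate 2 (adjusted p = 0.071) or AZD5153 replicate 3 (adjusted p = 0.12). NDUFB10, NDUFA8 and NDUFA3, accessory subunits of this arm, also rose, with log2 values over both times of 0.64 ± 0.071 SE (adjusted p = 4.4e-07), 0.67 ± 0.073 (adjusted p = 4.7e-07) and 0.84 ± 0.16 (adjusted p = 0.00022) in limma. In NDUFA3 the DMSO libraries at 24 hours were 179, 406 and 455, and without replicate 1, which was far from the others, its 24-hour value went from 1.07 to 0.65 (log2).

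The effect of AZD5153 differed between 24 and 48 hours in 13 members. The interaction was higher at 48 hours in 11 and lower in 2, where 24.5% of all genes were called (14.4% higher, 10.1% lower), so the members' share of 14.3% higher was close to that of all genes. Without DMSO replicate 1 at 24 hours 13 were higher and 2 lower, and without DMSO replicate 3 at 24 hours 6 were lower. ATP5F1A (interaction 0.40 ± 0.068 SE on the log2 scale, adjusted p = 0.00056), ATP5F1B (0.38 ± 0.071, adjusted p = 0.0012), UQCRC2 (0.25 ± 0.064, adjusted p = 0.011) and UQCRC1 (0.23 ± 0.075, adjusted p = 0.033) rose at 24 hours and further at 48 hours.

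NDUFB5, a subunit of the membrane arm, had 902, 644 and 559.9 normalized counts with DMSO against 661, 610.2 and 659.7 with AZD5153 at 24 hours, then 584, 612 and 631 against 917, 987 and 864 at 48 hours. Its levels overlapped at 24 hours and were apart at 48 hours, with an interaction of 0.69 ± 0.18 SE (adjusted p = 0.01 in limma). NDUFA1, a small subunit needed for assembly, had 435, 459.8 and 612 normalized counts with DMSO against 815, 780.2 and 547 with AZD5153 at 24 hours, then 671, 660.5 and 826 against 616, 699 and 578 at 48 hours. Its groups overlapped at both times. It rose at 24 hours (adjusted p = 0.0081) and was not called at 48 hours (adjusted p = 0.29), its DMSO level was higher at 48 than at 24 hours, and its interaction of -0.69 ± 0.21 (adjusted p = 0.029) missed the threshold in 6 of the 12 fits without 1 library (adjusted p from 0.06 to 0.083), namely those without DMSO replicate 2 at 24 hours or 3 at 48 hours, or AZD5153 replicates 1 or 2 at 24 hours or 1 or 3 at 48 hours. NDUFA11, whose transcript is 68.2% shared with another gene on the same strand, had 54.1, 86.8 and 102 normalized counts with DMSO against 96.5, 94.2 and 100.4 with AZD5153 at 24 hours, then 132, 137 and 119 against 59.3, 79.3 and 83.9 at 48 hours and an interaction of -1.11 ± 0.30 (adjusted p = 0.013). How many of its reads lie in the shared stretch was not tested.

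**Figure D4:**
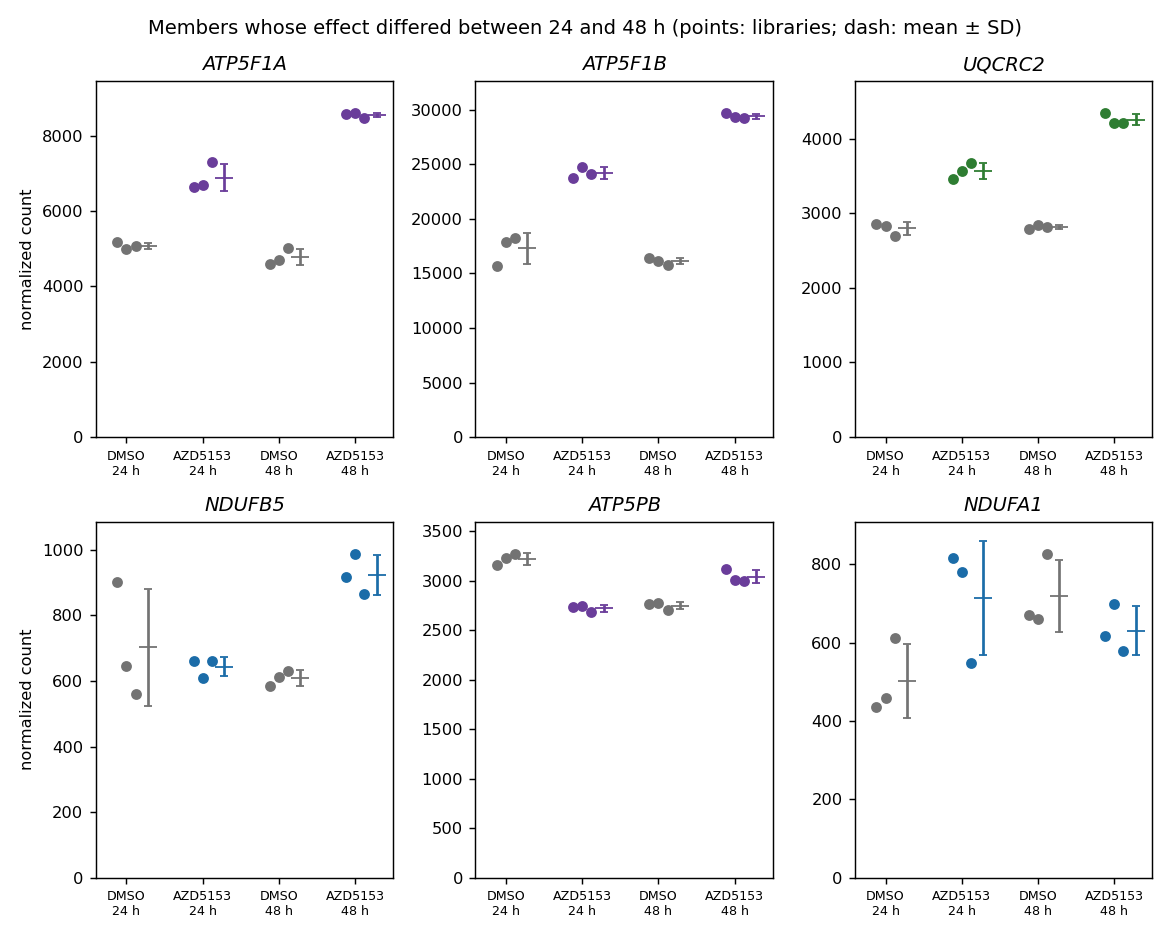
Normalized counts of 6 members whose AZD5153 effect differed between 24 and 48 hours, in each library (points) with mean and SD (dash and bar), DMSO in grey and AZD5153 in colour. ATP5F1A, ATP5F1B and UQCRC2 rise at 24 hours and further at 48 hours, NDUFB5 rises at 48 hours, ATP5PB is below DMSO at 24 hours and above at 48 hours, and NDUFA1 has a higher mean with AZD5153 at 24 hours, with overlapping groups at both times.

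Time in culture alone changed few members. In DMSO 4 members were higher and 9 lower at 48 than at 24 hours, where 35.7% of all genes were called (16.4% higher, 19.3% lower). The count of higher members was 11 without DMSO replicate 3 at 24 hours and 1 without DMSO replicate 2 or 3 at 48 hours. In AZD5153 13 were higher and 4 lower at 48 than at 24 hours, where 29.7% of all genes were called (15.8% higher, 13.8% lower). ATP5MK, a small membrane subunit of complex V, was at 0.754 of its 24-hour level in DMSO (limma adjusted p = 2e-04), and SDHD rose 1.34-fold in AZD5153 (adjusted p = 0.00035).

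Promoters of respiratory genes are known for sites of NRF1, of GABP, a factor of the ETS family, and of YY1. RefSeq promoters of GRCh38.p14, 250 bases before to 50 after the gene start, were matched to 63 of the 77 members, and 3 fixed runs of letters were searched on both strands: GCGCA, any base and GCGC for NRF1, CCGGAAG for ETS factors and AANATGGC for YY1. The NRF1 letters stood in 25.4% of the members' promoters, in 7.39% of the 22199 protein-coding promoters and in 5.78% of all 35116 promoters in the table. The ETS letters stood in 30.2%, 12.8% and 10.3%, and the YY1 letters in 41.3%, 7.37% and 6.58%. At least 1 kind was found in 71.4% of members, 24.1% of protein-coding promoters and 20% of all promoters, and in no member did runs of 2 kinds share bases. In 17 of the 26 members with the YY1 letters these began after the gene start, as in 50.2% of the protein-coding promoters that hold them. A match is a match of letters only and says nothing of binding.

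Members that rose and members that fell both carried these letters. Of the 37 members with a promoter that were higher over both times, 21.6% had the NRF1 letters, 24.3% the ETS letters and 37.8% the YY1 letters. Of the 8 that were lower, 37.5%, 12.5% and 25% had them. The shares among the 18 not called were 27.8%, 50% and 55.6%. In complex IV the NRF1 letters were in 0 of 9 promoters and the YY1 letters in 5 of 9. In complex I the ETS letters were in 4 of 31 promoters (12.9%), close to the 12.8% of protein-coding promoters. Complexes II, III, IV and V had them in 66.7%, 42.9%, 44.4% and 46.2%.

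The promoters of 3 members that rose and 2 that fell are printed to show where these letters lie. Each sequence runs from 170 bases before to 30 bases after the gene start, in the direction of the gene, with matches on either strand in capitals. COX6A1 (chr12:120437943-120438142, plus strand) holds an ETS and a YY1 match, COX5B (chr2:97645892-97646091, plus) a pair of ETS matches, and ATP5F1A (chr18:46098267-46098466, minus) an ETS and a YY1 match. NDUFB4 (chr3:120596166-120596365, plus), which fell, holds 3 NRF1 matches, and ATP5MC1 (chr17:48892617-48892816, plus), which also fell, holds none of the letters searched.
COX6A1: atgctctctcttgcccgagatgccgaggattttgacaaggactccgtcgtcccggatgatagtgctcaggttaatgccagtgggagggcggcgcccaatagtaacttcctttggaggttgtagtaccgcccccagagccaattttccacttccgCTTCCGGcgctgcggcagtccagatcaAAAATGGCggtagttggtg
COX5B: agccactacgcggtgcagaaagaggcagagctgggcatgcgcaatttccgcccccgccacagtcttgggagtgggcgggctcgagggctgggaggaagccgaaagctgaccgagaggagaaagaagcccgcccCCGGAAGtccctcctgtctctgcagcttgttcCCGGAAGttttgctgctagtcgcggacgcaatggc
ATP5F1A: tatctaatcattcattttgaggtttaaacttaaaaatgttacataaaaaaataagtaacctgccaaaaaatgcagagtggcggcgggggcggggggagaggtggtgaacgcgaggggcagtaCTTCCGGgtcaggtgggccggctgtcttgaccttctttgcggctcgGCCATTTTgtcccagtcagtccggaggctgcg
NDUFB4: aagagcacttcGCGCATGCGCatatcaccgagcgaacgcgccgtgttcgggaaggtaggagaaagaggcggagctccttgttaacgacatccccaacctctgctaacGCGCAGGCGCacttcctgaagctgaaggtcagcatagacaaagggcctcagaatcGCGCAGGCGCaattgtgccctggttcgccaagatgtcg
ATP5MC1: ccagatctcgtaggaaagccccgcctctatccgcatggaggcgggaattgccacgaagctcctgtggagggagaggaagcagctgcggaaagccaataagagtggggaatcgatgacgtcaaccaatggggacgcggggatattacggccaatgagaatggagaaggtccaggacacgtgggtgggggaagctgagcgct

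The genes around the complexes moved in both directions. Of 6 measured genes for other subunits and for cytochrome c, 5 were higher over both times and 1 was not called, where 37.7% of all genes were higher and 38% lower. CYCS, which is cytochrome c itself, rose by 0.98 ± 0.044 SE on the log2 scale (limma adjusted p = 6.6e-12), more than any member of complexes III and IV. CYC1, the cytochrome c1 of complex III, rose by 0.29 (adjusted p = 1e-04). All 4 assembly factors of complex V were higher, with ATPAF2, which helps to build the F1 head, at 1.13 (adjusted p = 1.1e-07).

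Assembly factors of the other complexes are read against the same shares of all genes. For complex I 4 of 14 were higher and 6 lower, for complex II 1 of 4 was higher, for complex III 3 of 6 were higher and 2 lower. For complex IV 8 of 22 were higher and 9 lower, and in this list both shares were close to those of all genes. Within this list COX19 (1.15, adjusted p = 1.3e-11) and SURF1 (1.12, adjusted p = 3.9e-11) rose and COA7 (-1.58, adjusted p = 5.4e-13) and COA6 (-0.93, adjusted p = 3.7e-08) fell in limma, on the log2 scale over both times. Of 77 mitochondrial ribosomal proteins, which make the subunits coded by mitochondrial DNA, 20 were higher and 31 lower over both times. At 24 hours 17 were higher and 26 lower (median log2 -0.11), where 33.9% and 34.6% of all genes were, and at 48 hours 23 were higher and 20 lower (median 0.070), where 33.1% and 33.9% were.

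Of 13 enzymes of the tricarboxylic acid cycle, which supplies NADH and succinate, 8 were higher and 2 lower over both times, against 37.7% and 38% of all genes. At 24 hours 6 were higher and 2 lower (33.9% and 34.6% of all genes), and at 48 hours 10 were higher and 2 lower (33.1% and 33.9%). OGDH, a part of the oxoglutarate dehydrogenase, rose by 1.74 ± 0.045 SE on the log2 scale (limma adjusted p = 9.3e-15) and IDH3A, the catalytic subunit of NAD-linked isocitrate dehydrogenase, by 1.24 (adjusted p = 4.6e-12). SUCLG2 fell by 0.81 (adjusted p = 1.6e-11). Of 12 import and carrier proteins 7 were higher and 2 lower over both times, 5 and 3 at 24 hours, and 7 higher with the others not called at 48 hours, to be read against the same shares of all genes. Over both times the ATP and ADP carrier SLC25A4 was at 1.75 (adjusted p = 2e-14).

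Of 12 nuclear regulators of respiratory genes, 2 were higher and 8 lower over both times, against 37.7% and 38% of all genes. At 24 hours 2 were higher and 8 lower (median log2 -0.36), and at 48 hours 1 was higher and 5 lower (median -0.024). ESRRA, an orphan nuclear receptor known to drive many respiratory genes, rose by 1.39 on the log2 scale at 24 hours (adjusted p = 2.8e-07) and less at 48 hours, by 0.51 (adjusted p = 0.0045; interaction adjusted p = 0.0047). Its coactivator PPARGC1A rose at 24 hours (0.41, adjusted p = 0.012) and was not called at 48 hours (0.16, adjusted p = 0.29). The related coactivators PPRC1 (-0.73 over both times, adjusted p = 1.9e-11) and PPARGC1B (-0.68, adjusted p = 1.9e-06) were lower at both times.

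The factors whose letters were searched in the promoters were lower mainly at 24 hours. NRF1 was at -0.54 on the log2 scale after 24 hours (adjusted p = 0.00014) but at -0.03 after 48 (adjusted p = 0.78), with an interaction at an adjusted p of 0.014. The GABP subunit GABPA was at -0.36 (adjusted p = 0.0011) and 0.02 (adjusted p = 0.88), with an interaction at an adjusted p of 0.029. GABPB1, the other GABP subunit, was lower at both times (-0.87, adjusted p = 2.9e-06, and -0.32, adjusted p = 0.017), as was YY1 (-0.43, adjusted p = 3e-06, and -0.20, adjusted p = 0.0041). TFAM, which packs and transcribes mitochondrial DNA, was at -0.37 (adjusted p = 1.4e-05) and 0.12 (adjusted p = 0.062), with an interaction at an adjusted p of 0.00027. The DMSO levels of NRF1, GABPA, GABPB1 and TFAM were lower at 48 than at 24 hours (log2 -0.42, -0.32, -0.57 and -0.43, limma adjusted p = 0.0038, 0.0071, 0.00075 and 2e-05). Their AZD5153 levels were not called between the times (adjusted p = 0.5, 0.64, 0.93 and 0.47). TFB1M, a methyltransferase of the mitochondrial ribosome, was lower at 48 hours (-0.55, adjusted p = 0.005).

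Members that share most of their transcript with another gene had low counts. In 7 members over 50% of the transcript is shared with another annotated gene on the same strand (NDUFA7, NDUFA11, NDUFA13, NDUFB8, NDUFV2, SDHA and ATP5PO), and their means ran from 11.2 to 140.2 with a median of 39.3, against a median of 1354 in the other 70. Of these 7, SDHA was called higher over both times and 5 were not called, and the call of NDUFA7, higher too, rests on its having reached the minimum of 10 through its AZD5153 libraries. Without DMSO replicate 1 at 24 hours, ATP5PO was called higher (log2 0.24, adjusted p = 0.042) and NDUFA11 lower (-0.38, adjusted p = 0.0093) over both times in limma. NDUFV2, which shares 90.0% of its transcript, had 11.3, 9.96 and 14.3 normalized counts with DMSO against 13.4, 6.14 and 24.5 with AZD5153 at 24 hours, then 13.5, 17.7 and 8.64 against 16.4, 5.43 and 17.1 at 48 hours, and its direction over both times differed between settings. Smaller shares were found in NDUFA9 (11.7%), UQCR11 (18.1%), NDUFC2 (19.7%), ATP5MG (24.4%), COX6A1 (32.6%) and COX8A (35.4%), with means from 111 to 289. NDUFB5 (10.1%), SDHD (23.8%) and ATP5MF (37.2%) had higher means of 719, 1275 and 409. Whether the shared stretches bear on the values of these members was not tested. Reads in a shared stretch cannot be given to 1 gene by counting alone, and whether strand was used is not given in the sources used here.

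**Figure D5:**
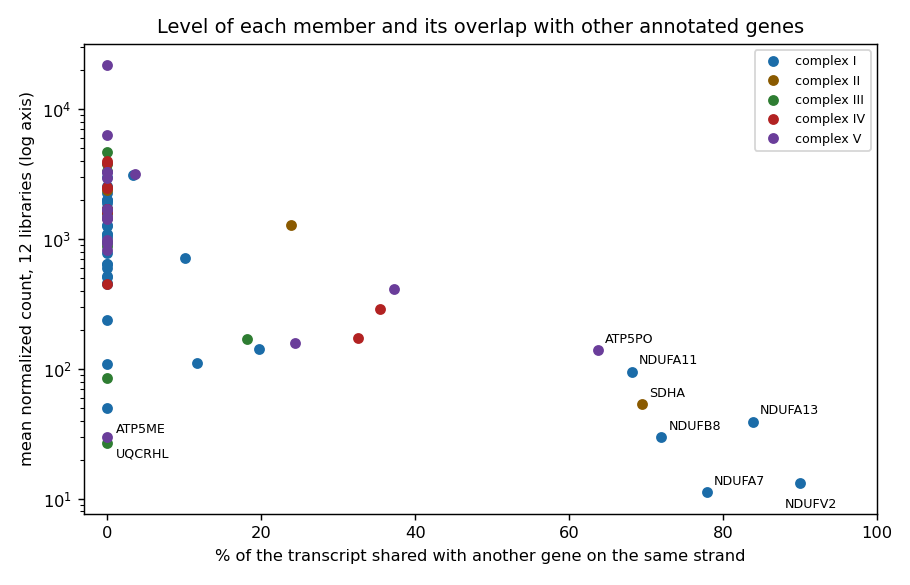
Mean normalized count of each member over the 12 libraries (log axis) against the percent of its transcript shared with another annotated gene on the same strand, coloured by complex. The 7 members with over 50% shared have means of 11.2 to 140.2, and the other members spread from 26.9 to 21760.

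The threshold of 10 normalized counts left 7 matches out and let NDUFA7 in with a mean of 11.2. NDUFA7 had 6.76, 4.27 and 4.46 normalized counts with DMSO against 14.7, 12.3 and 13.5 with AZD5153 at 24 hours, then 18.0, 2.66 and 7.56 against 11.9, 19.6 and 18.8 at 48 hours, and it passed the threshold through its AZD5153 libraries, so its call of higher (2.22-fold over both times) is not read as a result. NDUFV2 (13.2) and UQCRHL (26.9) came next, and the nearest matches below the threshold were COX6B2 with a mean of 2.59 and ATP5MF-PTCD1, a read-through transcript, with 2.10.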

How the data were processed

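Total RNA of SF8628 cells was sequenced as paired-end reads of 12 NEBNext Ultra II libraries on a NovaSeq. The authors used STAR and the hg38 genome for alignment and HTSeq for gene counts, which they divided by a DESeq2 size factor per library. Versions, annotation and strand setting are not given in the sources used here. The deposited signal values are these normalized counts, and all of them came out as whole reads at a tolerance of 0.01. Columns of the authors' own comparison (a log2 fold change, its standard error and test statistic, both recorded as a score, and p-values) were deposited in the same table and were not used. Libraries held 15759148 to 27335220 reads on genes, and counting error weighs most on the lowest members. CUT&RUN libraries and JQ1 were not analysed here.

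Genes averaging 10 or more normalized counts (15599) were fitted with limma 3.58.1 in R 4.3.3 on log2(value + 1), with 1 coefficient for each of the 4 groups, 8 residual degrees of freedom, an intensity trend and Benjamini-Hochberg adjustment over all genes at 0.05. Counts of members were read from that fit, and no test was run over the members. edgeR 4.0.16 and DESeq2 1.42.0 on the recovered reads were alternatives, beside other pseudocounts, minimum means, scalings, a replicate block, the groups compared alone, no trend, minimum sizes of change, a loess correction on transcript length and GC content, and fits without each library in turn. The fit was tested on simulated data, with 1 spread for all genes and 100 genes changed at each size, which differs from these data. Changes of 1.3-fold were called in 32% at 24 hours, 33% at 48 hours and 68% over both times. For 2-fold these were 87%, 90% and 96%, and at most 0.0714% of unchanged genes were called. A member not called at 1 time may therefore still have changed.

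Members and gene lists were chosen with earlier results of these data known. Named members are, in each complex, the largest rise and fall over both times among called members averaging 100 or more, interactions of at least 0.5 (log2), copies of 1 subunit, the catalytic core, the 3 highest per length and those next to the minimum of 10. Others are named by role, after their values had been seen. A result that this choice by role would include is not reported here, though that member enters the counts. Lengths, overlaps and coding sequences come from GENCODE 44, promoters from RefSeq (GRCh38.p14, 63 of 77 members matched). Promoters were searched with Python 3.11.15.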

Additional observations from a re-analysis of the deposited data

Results flagged for a closer look

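In 13 members the effect of AZD5153 over DMSO differed between 24 and 48 hours by the interaction term of limma, given here as the 48-hour minus the 24-hour effect on the log2 scale with its Benjamini-Hochberg adjusted p. Of all genes 24.5% passed this test. In complex V it was 0.40 in ATP5F1A (adjusted p = 0.00056), 0.38 in ATP5F1B (adjusted p = 0.0012), 0.39 in ATP5PB (adjusted p = 0.00034) and 0.35 in ATP5MK (adjusted p = 0.013). ATP5PB and ATP5MK were below DMSO at 24 hours (-0.24 for both) and above it in every library at 48 hours (0.15 and 0.10, the latter not called), while the DMSO level of both was lower at 48 than at 24 hours. In complex I it was 0.69 in NDUFB5 (adjusted p = 0.010), 0.41 in NDUFS8 (adjusted p = 0.0050), 0.32 in NDUFB11 (adjusted p = 0.012), 0.30 in NDUFB9 (adjusted p = 0.030), -0.69 in NDUFA1 (adjusted p = 0.029) and -1.11 in NDUFA11 (adjusted p = 0.013). NDUFB5 without DMSO replicate 1 at 24 hours had a 24-hour effect of 0.099 in place of -0.096. In complex II it was 0.40 in SDHD (adjusted p = 0.0085), and in complex III 0.25 in UQCRC2 (adjusted p = 0.011) and 0.23 in UQCRC1 (adjusted p = 0.033). Complex IV gave no such member by limma, edgeR or DESeq2 (0 of 11 each), with 1 at an unadjusted p under 0.05.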

How the results depend on the processing

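Directions of the members' median effect of AZD5153 held at 24 hours, at 48 hours and over both times under every alternative, and the sizes moved most with the scaling. With equal totals the medians were 0.126, 0.0728 and 0.0938 (log2), with 27 members higher at 48 hours and 18 lower over both times, and for 48 against 24 hours in DMSO 7 were higher with a median of 0.0119. Under that scaling NDUFS1 was at -0.0234, -0.0245 and -0.0240 at 24 hours, 48 hours and over both, SDHB at -0.102 at 24 hours and -0.0193 over both, UQCRFS1 at -0.00840 at 24 hours and NDUFV1 at -0.102 at 48 hours. With 7 stably expressed genes as the scale the medians were 0.203 at 24 hours, 0.147 for the interaction and 0.137 for time in AZD5153, with 2 members higher in DMSO and 2 lower in AZD5153 over time, and SDHB at -0.0256 at 24 hours. With quantile normalization the medians were 0.315 at 48 hours, 0.297 over both and 0.00758 for time in DMSO with 8 higher; at 48 hours UQCR11 was at 0.129, NDUFV1 at -0.0709 and NDUFV2 at 0.320, and over both times NDUFA11 at 0.0369, UQCRHL at 0.214, ATP5MG at 0.255 and NDUFV2 at 0.278. The correction for length and GC gave medians of 0.151, 0.364, 0.273, 0.171 for the interaction (21 higher, 1 lower) and -0.111 for time in DMSO (2 higher, 18 lower), with NDUFA11 at -0.0863, NDUFB5 at 0.140 and COX6A1 at -0.00534 at 24 hours, and ATP5MG at 0.182 and NDUFV2 at 0.0571 over both. The cause of these shifts was not tested.

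A minimum mean of 100 gave medians of 0.287 at 48 hours and 0.138 for the interaction (1 lower). With no minimum mean, 2 were higher in DMSO and 2 lower in AZD5153 over time. Without the intensity trend these were also 2 and 2, with 1 lower in the interaction, and with only the groups compared 2 were higher in DMSO. A pseudocount of 10 put NDUFV2 at 0.0336 over both times, edgeR put it at 0.135 and UQCRHL at 0.0151, and DESeq2 put them at 0.135 and 0.00689. A minimum size of 1 (log2) left 2 higher and 0 lower at 24 hours, 2 and 1 at 48 hours, 1 and 0 over both, 0 and 1 for the interaction, 0 and 0 for time in DMSO and 0 and 0 for time in AZD5153. Members higher were then 2.6% at 24 hours and 1.3% over both times, against 10.8% and 9.57% of all genes, and the shares of all genes lower were 15.7% and 16.1%. The member left over both times was NDUFA7, which was also among those at 24 hours and whose call is not read as a result. A minimum of 0.5 left 15 and 4, 23 and 4, 18 and 2, 1 and 2 for the interaction, 2 and 0, and 1 and 1. Members higher were then 19.5%, 29.9% and 23.4% at 24 hours, 48 hours and over both, against 22.9%, 21.4% and 22.7% of all genes, and members lower 5.19%, 5.19% and 2.6%, against 25.5%, 25.8% and 27%.

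Some calls of named members changed with no change of sign. At 24 hours UQCRC1 was lost with no minimum mean, equal totals, 7 stable genes, quantile normalization, the replicate block, only the groups compared, no trend, DESeq2 and the length and GC correction. NDUFC2 was lost with no minimum mean, equal totals, only the groups compared and no trend, SDHA under the first 3 of these, NDUFV1 with equal totals, 7 stable genes, only the groups compared and no trend, NDUFA7 with no minimum mean, equal totals, 7 stable genes and the length and GC correction, COX7B with equal totals, and NDUFA1 and COX6B1 with that correction. NDUFS1 gained a call with TMM, edgeR and the correction, UQCRFS1 with the correction, and NDUFA11 and COX6A1 with quantile normalization. At 48 hours UQCRH, SDHB and COX7C were lost with equal totals and with quantile normalization, ATP5MC3 and COX5B with equal totals, and NDUFA11 and NDUFS1 with quantile normalization. NDUFA1 gained a call with equal totals and with only the groups compared, COX6B1 with the latter, NDUFV1 with the correction and NDUFA7 with quantile normalization. Over both times NDUFB5 and UQCRFS1 were lost with equal totals and NDUFS1 and SDHB with quantile normalization, and NDUFA11 was called lower with equal totals and with the correction. The interaction of NDUFA1 was lost with no trend and with the correction.

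Without each library in turn the medians ran from 0.227 to 0.291 at 24 hours, 0.242 to 0.278 at 48 hours, 0.235 to 0.267 over both, 0.0573 to 0.134 for the interaction, -0.0533 to -0.00992 for time in DMSO and -0.00213 to 0.0683 for time in AZD5153. Lower members ran from 1 to 6 for the interaction and 1 to 5 for time in AZD5153, and higher members from 1 to 11 for time in DMSO. Among the members named by rule rather than by role, values whose sign changed were NDUFB5 (-0.244 to 0.0989), SDHB (-0.0112 to 0.0852), UQCRHL (-0.623 to 0.0544) and NDUFV2 (-0.325 to 0.592) at 24 hours, NDUFV2 at 48 hours (-0.381 to 0.365), and UQCRHL (-0.193 to 0.146), ATP5MG (-0.0785 to 0.0298) and NDUFV2 (-0.224 to 0.241) over both. Other members changed sign too, such as NDUFS6 at 24 hours (-0.0667, but 0.119 without DMSO replicate 1) and NDUFS3 over both times (0.0319, but -0.00921).

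Replicate numbers are shared between groups, but libraries with the same number did not deviate together (r from -0.151 to 0.0363 in 18 pairs, against -0.109 to 0.154 for other numbers, and the best match had the same number in 15 of 36 checks). Over genes averaging 100 or more, r ran from -0.432 to 0.158 for the same number and from -0.29 to 0.413 for others. The value of 0.413 was that of DMSO replicate 1 and AZD5153 replicate 3 at 24 hours. A replicate block gave 40 higher and 13 lower at 24 hours, 41 and 10 at 48 hours, 49 and 9 over both, and 2 higher in DMSO and 2 lower in AZD5153 over time. Counts were lowest in NDUFA7, NDUFV2, UQCRHL, ATP5ME and NDUFB8, whose means were 11.2 to 29.9 normalized counts. NDUFA7, NDUFV2 and NDUFB8 also share most of their transcript with another gene on the same strand, and the cause of the low counts was not tested.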
